A study of Caenorhabditis elegans with 26 samples.

Results

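The pseudogenes described here are 195 autosomal loci of Caenorhabditis elegans at which wild-type worms carried small RNAs. They were chosen by their wild-type reads: 30 or more raw reads summed over both WT libraries. There were 1918 genes annotated as pseudogenes among 22271 genes in all, entries without an annotation included. Of the 1918, 896 had no WT read, 767 had 1 to 29 and 255 had 30 or more. From the 255, 32 loci on X, 24 named after the F-box, bath, math and btb families and 4 others named in the selection rule were left out. Because WT reads chose them, every value of a mutant against WT is a description here. The comparison of both mutants with each other contrasts no library that chose the loci, although WT libraries entered the same fit, with its filter, scaling and pooled spread. It was known to show lower pseudogene reads when the loci were chosen, so it is not independent support for that pattern.

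Small RNAs of whole worms were sequenced in 2 libraries from each of 3 genotypes: rde-3 mut-16(DE6R) double mutants, mut-16(DE6R) mutants and wild type (WT). Both mutants carry the mut-16(DE6R) allele, which the labels do not describe further, and the labels name neither the rde-3 allele nor the age of the worms. Libraries were made after treatment with PIR-1, an RNA phosphatase that makes triphosphorylated small RNAs ready for linker ligation. The other 20 of the 26 libraries came from tethering strains with values on a transgene alone and are not used here.

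Pseudogenes are decayed copies of genes or transposons, and in the worm germline many of them are targets of the mutator pathway. MUT-16 is the scaffold of mutator foci, perinuclear germ granules in which RNA-dependent RNA polymerases copy target transcripts into antisense 22G RNAs that load onto worm-specific Argonautes (WAGOs). Target RNAs become templates for that copying when the nucleotidyltransferase RDE-3 (MUT-2) adds tails of alternating U and G to their ends.

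Counted reads per library came to 515300 and 584502 in rde-3 mut-16(DE6R), 620047 and 1571194 in mut-16(DE6R), against 1149904 and 1359593 in WT. The coding gene F56H9.8 alone held 55.5% and 55.5% of the reads in rde-3 mut-16(DE6R), 37.6% and 37.5% in mut-16(DE6R), against 51.7% and 49.5% in WT. Levels are given as CPM, counts per 1000000 reads with library sizes scaled by TMM factors, so they are relative to the bulk of genes and not amounts per worm. In whole worms, fewer cells of a type and fewer small RNAs per cell cannot be told apart. Whether libraries of a genotype came from separate cultures is not labelled, so the p-values cover no more than the spread among these libraries, possibly technical. The fit pools that spread over genes with 3 residual degrees of freedom, and very small p-values rest on the pooled spread. Reads on mut-16 numbered 7 and 8 in rde-3 mut-16(DE6R), 2 and 5 in mut-16(DE6R), against 5 and 2 in WT. Those on mut-2, the gene of RDE-3, numbered 0 and 2, 3 and 4, and 0 and 1 in the same genotypes, and small RNAs on a gene do not check the genotype.

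In WT the loci held between 30 and 20635 reads, with a median of 146. 39 of them had 1000 reads or more and 83 had fewer than 100. Per kilobase of transcript their WT levels ran between 3.99 and 17500 CPM per kb. Together they held 1.88% and 1.92% of the reads outside F56H9.8 and mitochondrial genes in rde-3 mut-16(DE6R), 7.82% and 7.81% in mut-16(DE6R), against 14.2% and 14.3% in WT. Shares in the double mutant were the lowest, those in the single mutant lay in between, and no library of one genotype came near those of another. With 2 libraries a genotype no exact permutation test could pass a threshold of 0.05, and no test was made of the shares. Median levels over the 195 loci were 5.95 CPM per kb in rde-3 mut-16(DE6R), 30.9 in mut-16(DE6R) and 115 in WT. Over 3531 autosomal protein-coding genes that met the same threshold of WT reads, the medians were 30.4, 32.5 and 39.3 CPM per kb in the same genotypes.

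**Figure D1:**
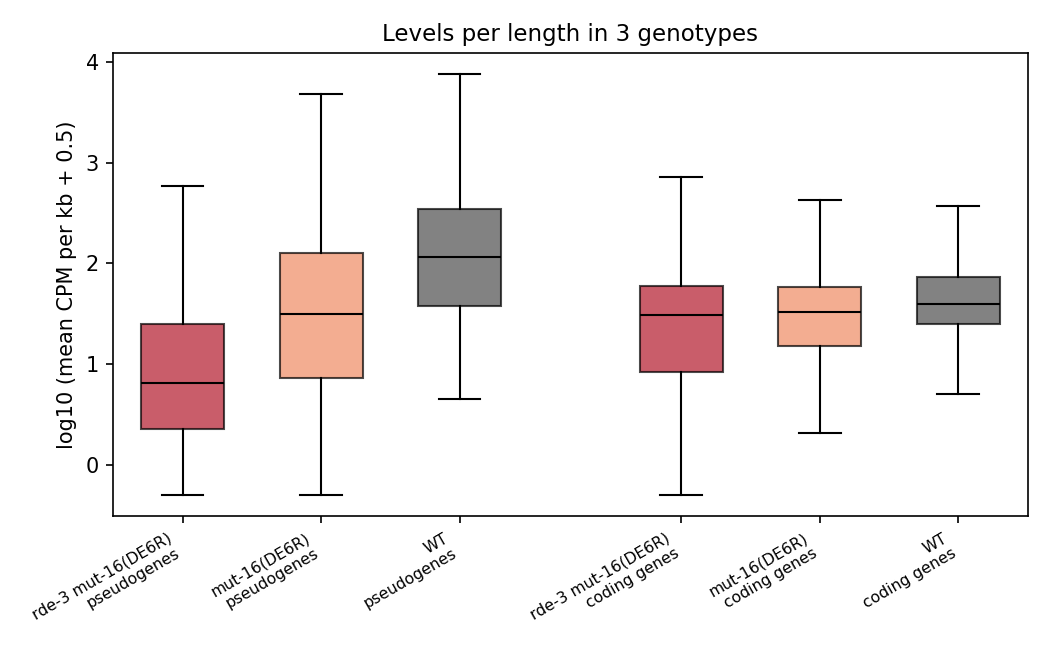
Box plot of the mean level per gene, as log10 of CPM per kilobase plus 0.5, for the 195 pseudogenes (left) and 3531 autosomal coding genes with 30 or more WT reads (right) in rde-3 mut-16(DE6R), mut-16(DE6R) and WT. Lines mark medians, boxes the quartiles and whiskers the farthest gene within the usual box plot range, with genes beyond it not drawn. The pseudogene medians are 5.95, 30.9 and 115 CPM per kb, while those of coding genes lie between 30.4 and 39.3.

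The first comparison asked what the added rde-3 mutation changes at these loci in worms that carry mut-16(DE6R). Small RNAs fell at most of them: of 189 loci tested, 127 fell, 10 rose and 52 did not pass, in the quasi-likelihood test of edgeR with p-values adjusted after Benjamini and Hochberg over all genes, at 0.05. Among all 5312 genes tested, 26.2% fell and 16.5% rose, so the 67.2% of pseudogenes that fell is above the background and the 5.29% that rose is below it. The median log2 fold change of the loci was −2.46 (quartiles −3.87 and −0.88), against −0.02 over all genes tested and 0.05 over the coding genes, of which 21.9% fell. With 16 loci that had no read in the double mutant placed at their bound (a floor of 3 counts over the group), the median was −2.13. With the filter on low counts applied to the 4 mutant libraries alone, 62 of the tested loci did not pass it. Its cutoff is set by the depth of the libraries used and was higher there. Not all of the 62 had thus passed through WT alone. A fit on the 4 mutant libraries alone tested the other 127 loci, of which 102 fell and 9 rose, while 27.2% of all 4170 genes tested in it fell.

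The size of the loss varied widely among the loci. Double-mutant levels had a median of 17.3% of the mut-16(DE6R) level. At 69 loci less than 10% was left and at 141 less than 50%. At 53 loci 50% or more was left, and 27 of these were as high or higher in the double mutant, counting F56B3.3, which had 1 read there and 0 in mut-16(DE6R). H31G24.2 had 0 reads in both mutants and has no ratio. The 52 loci that did not pass had few reads, with a median of 36.5 over the 4 mutant libraries against 214 for those that passed.

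**Figure D2:**
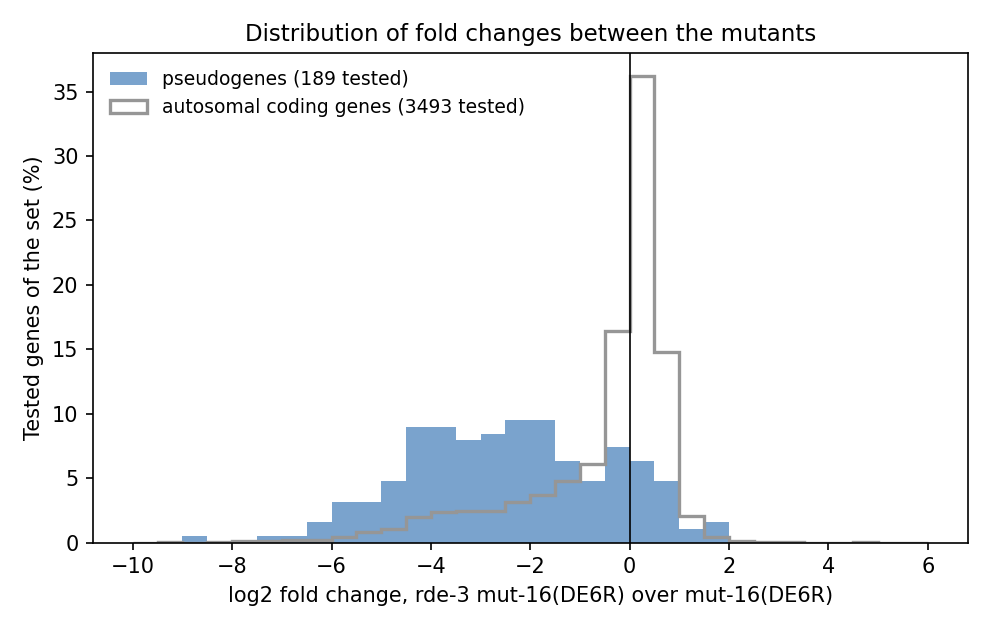
Histogram of the log2 fold change, rde-3 mut-16(DE6R) over mut-16(DE6R), as the percent of tested genes in bins of 0.5, for 189 pseudogenes (filled) and 3493 coding genes (outline). The coding genes peak near 0 (median 0.05), while the pseudogenes spread over the negative side with a median of −2.46 and a smaller group around 0. Values of loci with no read in the double mutant are fitted and not bounded.

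Small-RNA reads on marker genes of several tissues moved between the genotypes too. They are small RNAs on these genes, not their mRNA. Between the mutants 16.5% of all genes tested rose and 26.2% fell. Summed over 12 intestine genes, the libraries held 605 to 715 CPM in rde-3 mut-16(DE6R), 279 to 307 in mut-16(DE6R) and 59.8 to 76.9 in WT, and 7 of 8 tested rose between the mutants. Over 8 muscle genes the sums were 220 to 238, 77.1 to 77.4 and 43.4 to 43.4 CPM in the same genotypes, and 4 of 5 tested rose. Over 10 oocyte and germline genes they were 2010 to 2070, 1530 to 1620 and 1560 to 1730 CPM, and 5 of 9 tested rose. Over 7 neuron genes they were 22.9 to 26.1, 127 to 140 and 327 to 336 CPM, and 3 of 4 tested fell, the same direction as most pseudogenes. Over 10 sperm genes they were 5.4 to 9.23, 19.0 to 19.5 and 16.1 to 20.9 CPM with 1 of 1 tested lower, and over 7 cuticle genes they stayed under 11 CPM with none tested. At 0 reads in the double mutant were elt-2 of the intestine list, lev-11 of muscle, pgl-1 of germline, egl-3, ida-1 and ric-4 of neuron, msp-3, msp-10, msp-19, msp-31 and spe-41 of sperm, and col-19, dpy-7 and col-93 of cuticle genes. The part of tissue makeup in the pseudogene results was not tested.

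The 10 loci with the highest WT levels held 48.5% of all WT reads on the 195. The highest, Y17D7C.3 (chromosome V, 18720589 to 18723771 in WBcel235, 798 bases of transcript), had 228 and 256 CPM in rde-3 mut-16(DE6R), 1810 and 1850 in mut-16(DE6R), against 14100 and 13900 in WT. Y39E4B.14 (III, 13162475 to 13164864) had 428 and 449 CPM in rde-3 mut-16(DE6R), 3650 and 3620 in mut-16(DE6R), against 8080 and 8860 in WT. Replicates lay close together at both, and the genotypes did not overlap. Against mut-16(DE6R), reads in the double mutant fell at Y17D7C.3 by 2.91 on the log2 scale (SE 0.09; adjusted p = 1.84e-221 in the quasi-likelihood test of edgeR, Benjamini-Hochberg adjustment). At Y39E4B.14 they fell by 3.05 (SE 0.08; adjusted p = 1.18e-310 in the same edgeR test). The single mutant stood at a log2 fold change of −2.93 (SE 0.06) against WT at Y17D7C.3 and of −1.22 (SE 0.06) at Y39E4B.14.

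With TMM factors, 2 kinds of profile were seen among the other 8. At F37H8.2 (II, 11171743 to 11175479) the levels were 274 and 246 CPM in rde-3 mut-16(DE6R), 2720 and 2820 in mut-16(DE6R), against 7890 and 8090 in WT. The larger step was between the mutants, with a log2 fold change of −3.42 (SE 0.09) there and −1.53 (SE 0.06) for mut-16(DE6R) against WT. Y46H3C.6 (V, −3.70, SE 0.11, between the mutants), Y59H11AR.6 (IV, −4.18, SE 0.10), ferl-1 (I, −3.87, SE 0.11) and E01G4.7 (II, −3.31, SE 0.12) also fell by more between the mutants than their values for mut-16(DE6R) against WT, which lay between −1.97 and −1.04. At K08B4.5 (IV, 6086350 to 6089404) the levels were 98.4 and 108 CPM in rde-3 mut-16(DE6R), 248 and 262 in mut-16(DE6R), against 3460 and 3750 in WT. Here most of the difference lay between mut-16(DE6R) and WT (−3.81, SE 0.08), and the fall between the mutants was 1.31 on the log2 scale (SE 0.13). C01G6.10 (II) and Y71G12B.28 (I) had this second profile, with log2 fold changes of −1.86 (SE 0.17) and −1.5 (SE 0.10) between the mutants and of −4.04 (SE 0.08) and −2.51 (SE 0.07) for mut-16(DE6R) against WT. All 10 were lower in the double mutant than in mut-16(DE6R), and lower there than in WT, without overlap. Of all 5312 genes tested, 2016 were lower without overlap in the first of these contrasts and 2319 in the second. With library totals in place of TMM factors, mut-16(DE6R) against WT stood at 0.16 at Y59H11AR.6 and at −0.03 at Y39E4B.14. With that scaling the larger step at Y71G12B.28 lay between the mutants, so its profile depends on the scaling.

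**Figure D3:**
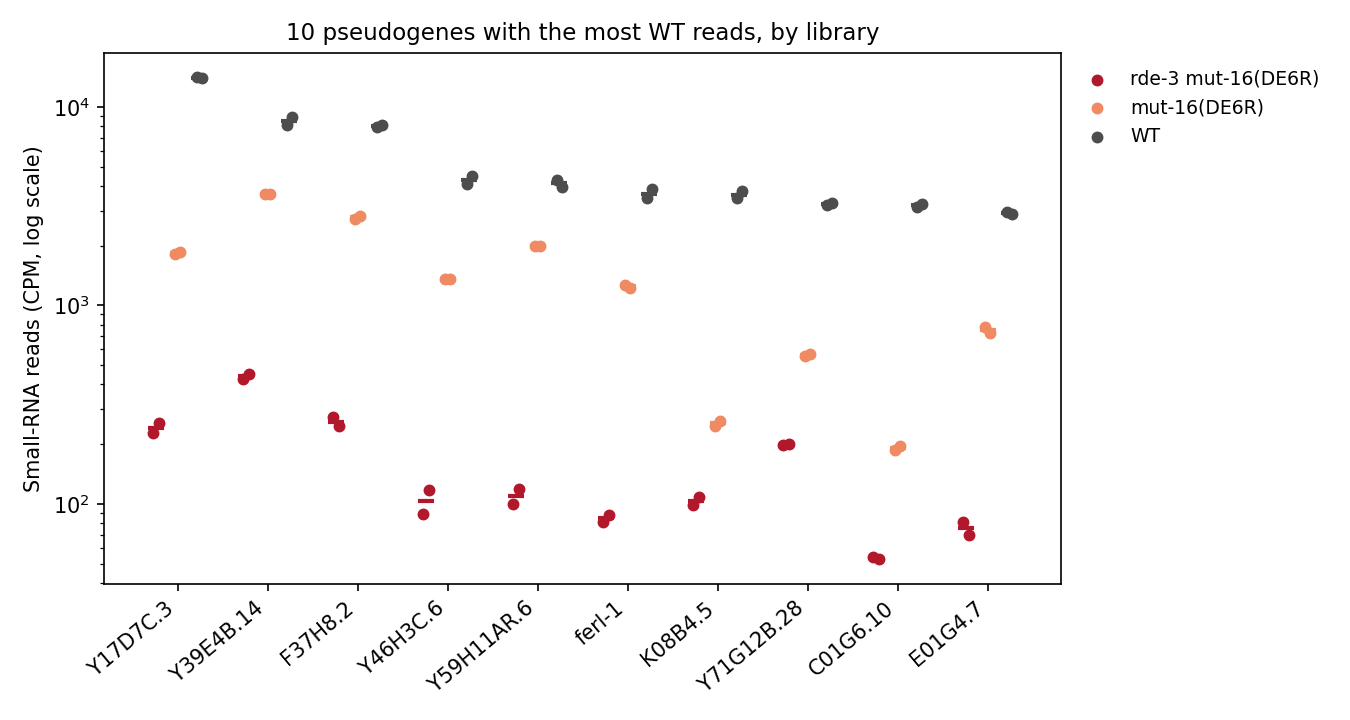
Small-RNA level of each library (CPM, log axis) at the 10 pseudogenes with the highest WT level, in rde-3 mut-16(DE6R), mut-16(DE6R) and WT, with short lines at the means. The order of genotypes is the same at all 10, and the gap between the mutants is wide at Y59H11AR.6 (100 and 119 against 2000 and 2000 CPM) and narrow at K08B4.5 (98.4 and 108 against 248 and 262 CPM).

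Among loci with 20 reads or more in mut-16(DE6R), the first 8 falls between the mutants by fitted fold change included 5 loci with no double-mutant read, for which the fall is only bounded and the rank is unsure. At B0250.11 (V, 20471566 to 20472496) the rde-3 mut-16(DE6R) libraries held 0 reads, against 138 in mut-16(DE6R) and 141 in WT, at least 21.8-fold lower than in mut-16(DE6R). At Y18D10A.30 (I, 12927895 to 12928456) 1 read was counted in the double mutant against 323 in mut-16(DE6R), 153-fold lower with an exact 95% counting interval of 27.2 to 6050. Y71A12B.19, Y40H7A.7, T06G6.11 and K01A2.3 also had 0 reads in the double mutant, against 41, 30, 28 and 22 in mut-16(DE6R), and were at least 6.47-fold, 4.73-fold, 4.42-fold and 3.47-fold lower. In all, 18 of the 195 loci had 0 reads in rde-3 mut-16(DE6R) and 2 had 0 in mut-16(DE6R). These intervals and floors cover counting error only. Without mut-16(DE6R) library 2, Y40H7A.7 no longer passed (edgeR adjusted p = 0.0615).

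At some of the loci with few double-mutant reads, mut-16(DE6R) was close to WT or above it. EGAP798.1 (V, 8876035 to 8878804) had 6.15 and 5.4 CPM in rde-3 mut-16(DE6R), 442 and 429 in mut-16(DE6R), against 283 and 332 in WT. The double mutant was far below the others, and both mut-16(DE6R) libraries were above both WT libraries. Its log2 fold change between the mutants was −6.21 (SE 0.23; adjusted p = 9.65e-154 in the quasi-likelihood test of edgeR, Benjamini-Hochberg adjustment), and that of mut-16(DE6R) against WT was 0.49 (SE 0.10). Y37H2A.16 (V) had 1.54 and 4.05 CPM in rde-3 mut-16(DE6R), 167 and 184 in mut-16(DE6R), against 179 and 217 in WT, so that only the double mutant stood apart, with a log2 fold change of −5.89 (SE 0.33) between the mutants. ZK250.15 (II) had 3.08 and 10.8 CPM in rde-3 mut-16(DE6R), 188 and 158 in mut-16(DE6R), against 112 and 108 in WT, and fell by 4.52 between the mutants (SE 0.28). Y43D4A.10 (IV) held 1 read in the double mutant against 134 in mut-16(DE6R), 63.4-fold lower with a counting interval of 11.2 to 2520, and T11G6.7 (IV) held 1 against 126, 59.6-fold lower (10.5 to 2370). The mut-16(DE6R) libraries were above the WT libraries at both, with 46.4 and 45.2 CPM in mut-16(DE6R) against 16.4 and 31 in WT for Y43D4A.10, and 51.2 and 39.5 against 25.4 and 34.7 for T11G6.7.

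**Figure D4:**
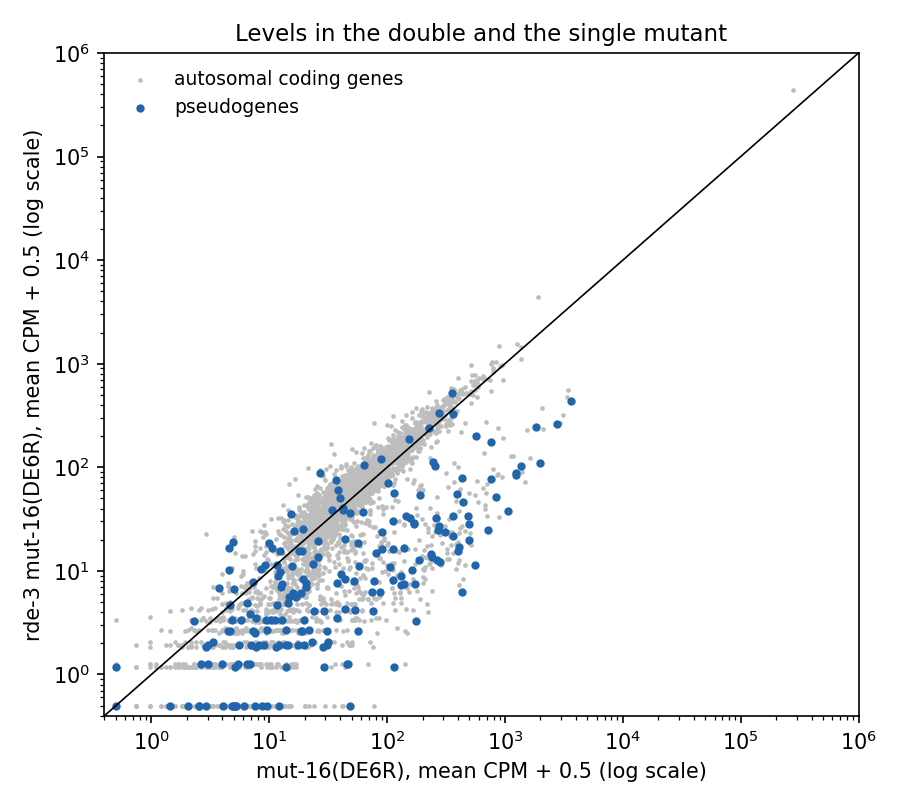
Mean level in rde-3 mut-16(DE6R) (vertical) against mut-16(DE6R) (horizontal), each as CPM plus 0.5 on a log axis, for the 195 pseudogenes (blue) and 3531 coding genes (grey), with the line of equal levels. Most pseudogenes lie well below the line across the whole range of mut-16(DE6R) levels, among them the 10 with the highest WT level, while most coding genes follow it. The grey point at the upper right is F56H9.8, and the lowest rows are genes with 0 or few reads.

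At 10 loci reads rose in the double mutant relative to mut-16(DE6R). F55A3.7 (I, 10785128 to 10787863) had 87.7 and 89.1 CPM in rde-3 mut-16(DE6R), 16.7 and 36.7 in mut-16(DE6R), against 112 and 141 in WT. The mut-16(DE6R) libraries were the lowest and differed from each other, and the double mutant lay between them and WT. Its log2 fold change was 1.52 (SE 0.21; adjusted p = 3.77e-12 in the quasi-likelihood test of edgeR, Benjamini-Hochberg adjustment). Y41E3.21 (IV; 1.95, SE 0.50), srh-103 (V; 1.77, SE 0.51), F40D4.14 (V; 1.14, SE 0.32) and Y43F11A.6 (II; 0.98, SE 0.21) were the others that rose by most. The remaining 5 rose by less: K11H3.4 (0.78), Y82E9BR.2 (0.63), C14B1.7 (0.56), F43G6.3 (0.42) and klp-10 (0.27).

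Most of these rises left the double mutant at or under the WT level. C14B1.7 (III) had 504 and 533 CPM in rde-3 mut-16(DE6R), 368 and 344 in mut-16(DE6R), against 635 and 645 in WT. Of the 10, klp-10, F40D4.14 and Y43F11A.6 had both double-mutant libraries above both WT libraries, as had 2058 of all 5312 genes tested. Several of these calls were frail: DESeq2 called neither srh-103 (adjusted p = 0.0631), F40D4.14 (0.0764) nor klp-10 (0.276), and klp-10 stood at −0.02 with no filter on low counts. With no filter, srh-103 (edgeR adjusted p = 0.0578), F40D4.14 (0.112) and Y43F11A.6 (0.0506) did not pass either. With library totals, klp-10 stood at 0.18 and did not pass (edgeR adjusted p = 0.158). Without rde-3 mut-16(DE6R) library 2, srh-103 stood at 1.16 and did not pass (edgeR adjusted p = 0.246). Without mut-16(DE6R) library 1 or rde-3 mut-16(DE6R) library 1, klp-10 stood at 0.19 and 0.23 and did not pass (edgeR adjusted p = 0.228 and 0.166).

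**Figure D5:**
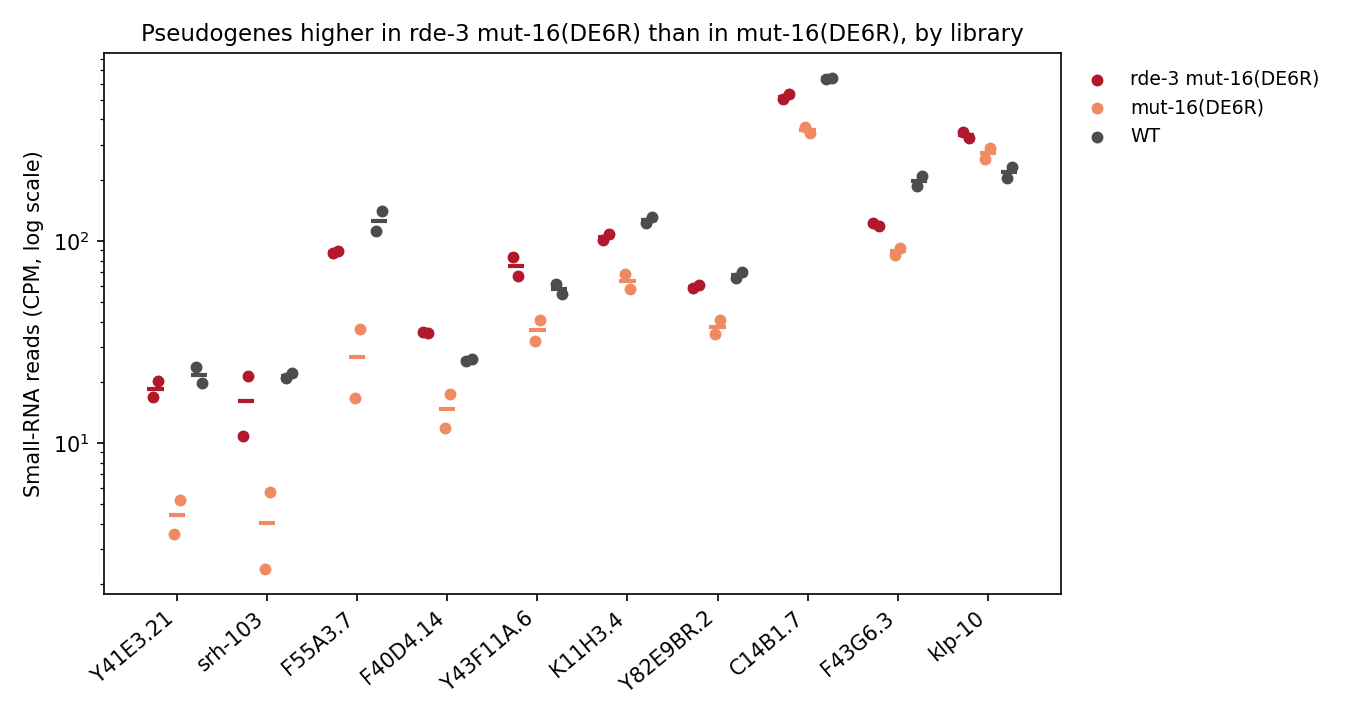
Level of each library (CPM, log axis) at the 10 pseudogenes that rose in rde-3 mut-16(DE6R) against mut-16(DE6R), with WT beside them and short lines at the means. At 7 of them the double mutant is near or under WT, as at C14B1.7 (504 and 533 against 635 and 645 CPM), while klp-10 is highest in the double mutant (348 and 323 CPM).

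Of the 52 loci that did not pass, 9 had 100 reads or more over the mutant libraries. lrg-1 (III, 9504764 to 9507081) had 241 and 239 CPM in rde-3 mut-16(DE6R), 224 and 229 in mut-16(DE6R), against 906 and 852 in WT. The mutants lay close together and both were far under WT, with a log2 fold change of 0.08 (SE 0.11) between the mutants. C06A1.4 (II) had 348 and 306 CPM in rde-3 mut-16(DE6R), 339 and 381 in mut-16(DE6R), against 262 and 259 in WT, so that every mutant library was above WT, and the mutants overlapped (−0.17, SE 0.10). The others were Y57A10A.1, F27B3.7, Y57A10A.3, Y57G11C.57, sls-2.19, F18A11.6 and F48F5.2, at log2 fold changes between −0.50 and 0.30, of which those outside the rule for named genes were chosen after their values were seen.

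Of the 195 loci, 21 carry the name of a gene class. Of these, 10 fell between the mutants, 2 rose and 9 did not pass (median −1.17). The other 174 have clone names only, and of their 168 tested, 117 fell and 8 rose (median −2.52). Among RNA regulators, puf-4, named for the Pumilio family of RNA-binding proteins, had 13.8 and 28.3 CPM in rde-3 mut-16(DE6R), 345 and 381 in mut-16(DE6R), against 822 and 958 in WT, and fell by 4.09 between the mutants (SE 0.18). wago-2 (I, 5368478 to 5372643), itself a decayed gene of the WAGO Argonaute family, had 123 and 101 CPM in rde-3 mut-16(DE6R), 246 and 247 in mut-16(DE6R), against 794 and 717 in WT. It was thus lower in each mutant than in WT without overlap, and fell by a smaller 1.15 between the mutants (SE 0.13; adjusted p = 7.48e-17 in the quasi-likelihood test of edgeR, Benjamini-Hochberg adjustment).

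Among other class-named loci, ferl-1 belongs to the ferlins, which act in membrane fusion. It had 81.5 and 87.7 CPM in rde-3 mut-16(DE6R), 1260 and 1230 in mut-16(DE6R), against 3470 and 3840 in WT. duo-2, named for deubiquitylating enzymes, dct-10 and gyg-3, named for glycogenin, also fell between the mutants, with log2 fold changes of −3.46 (SE 0.19), −4.73 (SE 0.19) and −3.23 (SE 0.28). These loci differed in how much mut-16(DE6R) had kept: dct-10 stood at −0.49 (SE 0.09) against WT and gyg-3 at −1.88 (SE 0.12). The chemoreceptor pseudogenes did not move alike. srx-70 and srh-158 fell, with −1.68 (SE 0.48) and −2.59 (SE 0.55), srbc-80 had 0 reads against 14 in mut-16(DE6R), at least 2.21-fold lower, and srh-103 rose as given above. Without either of the rde-3 mut-16(DE6R) libraries srbc-80 did not pass (edgeR adjusted p = 0.0539 without library 1 and 0.0731 without library 2).

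Besides lrg-1, 8 class-named loci did not pass between the mutants. sls-2.19, a copy of the gene for the SL2 spliced leader RNA, had 35.4 and 40.5 CPM in rde-3 mut-16(DE6R), 33.3 and 50 in mut-16(DE6R), against 37.4 and 36.0 in WT, with overlap among all 3 genotypes. Being only 115 bases long, it had 330 CPM per kb in the double mutant, below 584 CPM per kb at Y39E4B.14. wee-1.2, of the Wee1 cell-cycle kinase family, held 2 reads in the double mutant, 17 in mut-16(DE6R) and 174 in WT, and oac-60, named for O-acyltransferases, 2, 7 and 70. Both were already low in mut-16(DE6R), and the ratio between the mutants was 4.02 for wee-1.2 (counting interval 0.955 to 35.9) and 1.66 for oac-60 (0.315 to 16.3). The log2 fold changes of pqbp-1.2, lips-14, cyp-31A1, a cytochrome P450 relative, snpc-3.3 and cars-2 lay between −1.17 and 0.63.

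Against WT the loci were chosen on one side of the contrast, and the counts are given without reading anything from them. Past the same threshold, 175 of 189 tested were lower and 2 higher in the double mutant, where 37.9% of all genes fell and 26.8% rose. In mut-16(DE6R) against WT 168 were lower and 5 higher, where 36.6% of all genes fell and 22.1% rose. Median log2 fold changes were −4.91 for the double mutant and −1.90 for mut-16(DE6R). With the 16 tested loci that had no double-mutant read placed at their bound, the median of the double mutant was −4.55. The double mutant kept a median of 3.14% of the WT level and less than 5% at 122 loci, and mut-16(DE6R) kept a median of 25.3% and less than 5% at 8. When the loci were chosen on WT library 1 alone (15 reads or more, 191 loci, 185 of them shared) and compared with WT library 2 alone, 178 were tested. Of these, 160 were lower and 2 higher in rde-3 mut-16(DE6R) (median −5.02), where 35.7% of all genes fell and 21.0% rose. In mut-16(DE6R) 152 were lower and 4 higher (median −1.96), where 33.7% of all genes fell and 15.6% rose. Separate cultures are not labelled for the WT libraries, so the choice on WT library 1 is not an independent check. The medians of both mutants against WT shift with the scaling. With library totals in place of TMM factors they were −3.83 for the double mutant and −0.71 for mut-16(DE6R), with 31 loci higher and 111 lower in mut-16(DE6R).

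The loci most depleted in mut-16(DE6R) against WT were low in the double mutant too. C06C3.5 (II, 9380106 to 9381355) had 12.3 and 17.5 CPM in rde-3 mut-16(DE6R), 8.33 and 15.2 in mut-16(DE6R), against 1190 and 1120 in WT. Both mutants were far under WT and overlapped each other, with log2 fold changes of −6.43 (SE 0.14) for mut-16(DE6R) against WT and 0.19 (SE 0.40) between the mutants. This locus shares 586 exonic bases with srh-48 on the other strand, which had 0 reads in the mutants and 13 and 12 in WT. H31G24.2 (I) had no read in any mutant library against 44 in WT, at least 13.8-fold lower in the double mutant and at least 29.2-fold lower in mut-16(DE6R). F32A11.5 (II) had 61.5 and 49.9 CPM in rde-3 mut-16(DE6R), 110 and 118 in mut-16(DE6R), against 2170 and 2450 in WT, and Y73B6A.6 (IV) and Y51H7C.42 (II) stood at −4.87 (SE 0.30) and −4.50 (SE 0.33) in mut-16(DE6R) against WT. H15N14.4 (I) held 0, 4 and 75 reads in rde-3 mut-16(DE6R), mut-16(DE6R) and WT.

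Ranked by fitted fold changes, which are not bounds, the first 8 loci that passed in the double mutant against WT had no double-mutant read. Besides B0250.11 (at least 44.3-fold lower than in WT), Y40H7A.7 and Y75B8A.41 were at least 30.8-fold and 30.2-fold lower, and H06O01.4, H15N14.4, T20F10.8, Y43B11AL.5 and srbc-80 between at least 15.1-fold and at least 27-fold. In the other direction, klp-10, named for kinesin-like motor proteins, was higher than WT in both mutants, with 348 and 323 CPM in rde-3 mut-16(DE6R), 255 and 290 in mut-16(DE6R), against 206 and 234 in WT. Its log2 fold changes were 0.60 (SE 0.12) for the double mutant and 0.33 (SE 0.11) for mut-16(DE6R). C06A1.4 stood at 0.32 (SE 0.11) and 0.49 (SE 0.10) in the same contrasts. The other loci past the threshold and above WT in mut-16(DE6R) were EGAP798.1, ZK250.15 and Y43D4A.10, described above. For klp-10 in mut-16(DE6R) the call was lost with DESeq2 (adjusted p = 0.134) and, in edgeR, without WT library 1 (adjusted p = 0.114) or mut-16(DE6R) library 2 (0.302). C06A1.4 in the double mutant did not pass with DESeq2 (adjusted p = 0.139) and, in edgeR, with no filter (adjusted p = 0.053) or without rde-3 mut-16(DE6R) library 1 (0.0947) or WT library 2 (0.0878). Y43D4A.10 in mut-16(DE6R) did not pass with DESeq2 (adjusted p = 0.147) or without WT library 1 (edgeR adjusted p = 0.178).

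At the threshold that chose the loci, F56D5.4, M04F3.2 and T11F9.19 had 30 WT reads each. Their reads were 4, 12 and 0 in rde-3 mut-16(DE6R) and 28, 33 and 5 in mut-16(DE6R). Just outside it, F23C8.11, F32A11.4 and T20H9.6 had 29 WT reads each, with 1, 11 and 1 reads in rde-3 mut-16(DE6R) and 5, 19 and 18 in mut-16(DE6R).

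All 195 loci are also pseudogenes in RefSeq. The longest transcript of each had a median of 1039 bases, against 1437 for the coding genes and 916 for all 1769 autosomal pseudogenes. Distinct exons, pooled over all transcripts of a gene, had medians of 4, 6 and 4 in the same sets. Genes with several transcripts can therefore count more exons. With each chromosome cut into 3 equal parts, 81.0% lay in the outer parts, against 61.2% of the coding genes and 79.3% of all autosomal pseudogenes. Chromosomes I, II, III, IV and V held 39, 42, 22, 41 and 51 of them. Chromosome V held 26.2% of the loci, against 16.7% of the coding genes and 43.9% of all autosomal pseudogenes. Exons of 12 loci (6.15%) overlapped a coding gene or pseudogene on the other strand, against 20.4% of the coding genes and 3.5% of all autosomal pseudogenes. Of the 195 loci, 182 overlapped no other coding gene or pseudogene on either strand, and overlap with RNA genes was not checked. Of the 178 tested loci without such overlap, 120 fell and 10 rose between the mutants (median −2.46). Among the 153 tested loci of the outer parts 103 fell (median −2.55), and among the 36 of the middle part 24 did (median −1.88).

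Of the 195, 46 lay within 10000 bases of another, in 21 groups of at most 4. In 10 groups every member fell between the mutants, in 10 some did, and in 1 none did. The group in which none fell, also the largest, is a stretch of chromosome II (12131530 to 12159252) with Y43F11A.6, Y57A10A.1, Y57A10A.3 and Y57A10A.6, at log2 fold changes between −0.50 and 0.98. In contrast, Y48G1BM.2, Y48G1BM.7 and Y48G1BM.8 (I, 238616 to 251580) fell, with values between −4.58 and −3.09, and H16D19.5, H16D19.6 and H16D19.7 (I, 12640720 to 12644321) fell, with values between −4.26 and −2.46. These groups were picked to be named after their values were seen. Near-identical copies can share reads, and how such reads were assigned is not given in the sources used here, so values of related loci may not be separate.

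Genes of the small-RNA pathway itself were read from a list of 33, of which 32 were found and 24 tested. Between the mutants 8 rose and 2 fell (median 0.18), where 16.5% of all genes tested rose and 26.2% fell. wago-1, a WAGO Argonaute gene, had 298.3 and 298.3 CPM in rde-3 mut-16(DE6R), 170.2 and 155.2 in mut-16(DE6R), against 130.1 and 127.7 in WT, and rose by 0.90 on the log2 scale (SE 0.11; adjusted p = 3.49e-14 in the quasi-likelihood test of edgeR, Benjamini-Hochberg adjustment). The helicase gene mut-14 (0.74, SE 0.11), the exonuclease gene mut-7 (0.45, SE 0.09), the polymerase gene ego-1 (0.41, SE 0.09) and the nuclease-family gene nyn-1 (0.56, SE 0.13) also rose. sago-1, another Argonaute gene, held 1 read in the double mutant against 51 in mut-16(DE6R). Reads here are small RNAs on these genes, not their mRNA.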

How the data were processed

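The table the authors deposited for the 6 libraries without a tethered protein holds raw counts of reads for each transcript, with its length beside them. The tools named are cutadapt 4.9 and Bowtie 1.3.1 and the build is WBcel235, per the submitters' processing notes. How reads were counted, whether strand was used, and what was done with reads of several matches or PCR duplicates is not given in the sources used here. Per the file headers, the 20 tethered columns hold counts of reads mapped to the transgene, and they were not used. Of the identifiers, 33755 were found as transcripts and 190 as sequence names in the annotation, 379 were not found, and 1 row naming no gene held 0 reads. The 379 were kept as entries without an annotation. They held 653 and 789 reads in rde-3 mut-16(DE6R), 15561 and 38985 in mut-16(DE6R), against 25752 and 32501 in WT. These reads count in the library totals and read shares, and the entries were open to the test across genes. Transcripts were summed to 22271 genes, these entries included. The 195 loci and all gene lists were chosen with earlier results of these data known.

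The test across genes was that of edgeR 4.0.16 under R 4.3.3 (quasi-likelihood F test, robust, TMM factors, 1 coefficient per genotype) after its expression filter (minimum count 10, minimum total 15), which kept 5312 genes with 98.33% of reads. The factors of TMM came to 1.26 and 1.27 for rde-3 mut-16(DE6R), 1.35 and 1.34 for mut-16(DE6R), and 0.582 and 0.593 for WT. The spread among libraries of a genotype beyond counting noise, possibly technical, came to a common coefficient of variation of 0.0401. An SE is the size of the log2 fold change divided by the square root of F, so it restates the p-value. Of the 195, 6 loci did not pass the filter. On simulated counts for the mutant comparison (4968 genes) 67% of 2-fold and 94.7% of 4-fold changes were called. Changed genes were drawn from all genes tested, at their mean share over all 6 libraries and with the common spread. These rates therefore do not describe loci with few reads in the mutants. DESeq2 1.42.0, other scalings, no filter, only the compared genotypes, a replicate block, other thresholds and each library left out were tried. Named loci were the 10 highest in WT, up to 8 largest falls and 5 largest rises per comparison without overlap and with 20 reads in the higher group, the 5 highest mut-16(DE6R) to WT ratios, 3 on each side of the threshold, and all class-named loci, of which 1 is counted but not reported here by name. Replicate libraries differed by more than counting noise (chi-square per degree of freedom 1.13 in rde-3 mut-16(DE6R), 1.12 in mut-16(DE6R), 1.31 in WT) and count as 2 each. Python 3.11.15, pandas 2.3.3 and scipy 1.17.1 were used for joins and intervals.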

Additional observations from a re-analysis of the deposited data

How the results depend on the processing

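In rde-3 mut-16(DE6R) against mut-16(DE6R) most of the loci tested fell under each alternative tried, 92 of 112 with the 100-read threshold and 102 to 130 under the others, with medians between −2.93 and −2.09. Scaled to library totals the median was −2.57, without F56H9.8 in the totals it was −2.09 with 20 rises, and with upper quartile factors it was −2.34. DESeq2 gave 5 rises and a median of −2.53, no filter on low counts 2 and −2.77, the 100-read threshold 6 and −2.89, and the fit of only the genotypes compared a median of −2.93. For the double mutant against WT there were 15 rises (median −3.83) with library totals, 16 (−3.68) without F56H9.8, 6 (−4.39) with upper quartile factors, 1 (−5.02) with DESeq2 and 1 (−4.82) with no filter. With loci chosen on WT library 1 the median was −5.02, and with 100 or more reads it was −5.22 with 108 falls. In mut-16(DE6R) against WT the rises and medians were 31 and −0.71 with library totals (111 falls), 23 and −1.05 without F56H9.8, 9 and −1.50 with upper quartile factors, and 3 and −1.96 with DESeq2. The median there was −1.60 with no filter, −1.77 with only the genotypes compared and −1.96 with loci chosen on WT library 1, and 105 loci fell with 100 or more reads. Leaving out each library gave 7 to 10 rises, 102 to 126 falls and medians of −2.62 to −2.33 between the mutants. It gave 1 to 2, 158 to 181 and −5.01 to −4.88 for the double mutant against WT, and 3 to 5, 149 to 175 and −1.96 to −1.90 for mut-16(DE6R) against WT. Counts over all genes moved too: the 877 rises between the mutants became 2028 without F56H9.8 in the totals, 217 with DESeq2 and 143 with no filter. The 1424 rises of the double mutant against WT became 2944 with library totals, 3069 without F56H9.8, 2369 with upper quartile factors and 747 with DESeq2. For mut-16(DE6R) against WT the 1173 rises became 3394, 2938, 2107 and 482 in the same order and 1789 with no filter, and the 1944 falls 1005 with library totals and 1244 without F56H9.8. The median of all genes, −0.02 between the mutants, −0.03 in the double mutant and −0.09 in mut-16(DE6R) against WT, was −0.11, 1.06 and 1.09 with library totals, 0.38, 1.22 and 0.76 without F56H9.8, and 0.11, 0.50 and 0.30 with upper quartile factors, in the same order. Of 1169 values of named loci under alternatives, 1138 stayed called or stayed not called, 25 lost the call and 4 gained one. A change of sign was counted apart only where the main fit or the alternative passed, so changes among values not called are within the 1138. This held for 2: klp-10 between the mutants with no filter (−0.02) and Y59H11AR.6 in mut-16(DE6R) against WT with library totals (0.16). The causes were not tested. An alternative added after seeing the data kept only loci sharing no exonic bases with another coding gene or pseudogene. It gave 10 rises and 120 falls between the mutants. The alternative on loci without a near-identical copy was not run, since no genome was used here. Depth limits loci with few reads: 83 of the 195 had under 100 WT reads.

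Replicate numbers did not pair the libraries (correlations of deviations −0.000816, −0.0162 and −0.0236). With the replicate number as a block, 10 loci rose and 126 fell between the mutants (median −2.48), 2 and 174 in the double mutant against WT, and 5 and 168 in mut-16(DE6R) against WT.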
